A study of Mus musculus with 8 samples.

Results

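The 33 genes described here are interferon-stimulated genes of the type I response: 4 sensors of viral RNA or Z-form nucleic acid, 11 regulators of the response, and 18 antiviral effectors. They were taken by symbol from the deposited table of 52459 genes, and all 33 were found in it. RNA had been sequenced from tumour nodules of lung tumour-bearing mice of the KrasTrp53 model, a genetically engineered model of non-small cell lung cancer on a mixed strain background. There were 4 groups of 2 libraries. One received vehicle, one JQ1, an inhibitor of the BET bromodomain proteins that read acetylated chromatin, one an antibody against PD-1, an inhibitory receptor of T cells, and one both agents, called the combination below. All groups carry the same model label, so no group is free of tumour. The labels used here state no dose, treatment time, age, allele or Cre driver. The design asks how nodules differ after each agent and after both.

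Type I interferons bind a receptor made of Ifnar1 and Ifnar2 on nearly every cell. The kinases Jak1 and Tyk2 then activate Stat2 in a complex with Irf9 that binds interferon-stimulated response elements in promoters. The genes switched on in this way detect viral nucleic acid, block viral replication and translation, and feed back on the signal itself. In lung tumours the same genes can be expressed by tumour cells, macrophages, other leukocytes and stroma, and in bulk tissue fewer cells of a type and less RNA per cell cannot be told apart.

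The element that this complex binds is shown in the promoters of 4 effectors whose values appear below, with the promoter of Trim25, the member called by the test, for comparison. Each line runs 5′ to 3′ up to the transcription start in RefSeq on GRCm38.p6, and capitals mark matches to the core of the response element, GAAA, any 2 bases and GAAA, or its reverse complement, TTTC, any 2 bases and TTTC. Isg15 (chr4:156200819-156201068, minus strand) has 3 overlapping matches and Bst2 (chr8:71537473-71537722, minus strand) has 2 overlapping ones. Ifit3 (chr19:34583279-34583528, plus strand) has 2 separate matches, beginning 156 and 122 bases before the start, and Oas3 (chr5:120777662-120777909, minus strand) has 1. Trim25 (chr11:88999153-88999375, plus strand) has none in the stretch shown or in the whole 250 bases. The last 27 bases for Trim25 and the last 2 for Oas3 lie inside the GENCODE gene and are left out.
Isg15: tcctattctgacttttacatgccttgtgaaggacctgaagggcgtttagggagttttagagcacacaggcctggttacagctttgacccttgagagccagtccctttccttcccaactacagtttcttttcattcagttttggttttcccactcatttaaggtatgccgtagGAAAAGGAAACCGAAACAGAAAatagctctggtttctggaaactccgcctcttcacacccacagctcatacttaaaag
Bst2: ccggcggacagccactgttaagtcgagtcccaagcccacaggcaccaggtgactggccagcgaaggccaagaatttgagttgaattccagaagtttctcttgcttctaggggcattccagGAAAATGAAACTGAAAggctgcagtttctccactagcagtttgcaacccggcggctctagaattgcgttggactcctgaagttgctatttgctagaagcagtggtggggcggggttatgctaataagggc
Ifit3: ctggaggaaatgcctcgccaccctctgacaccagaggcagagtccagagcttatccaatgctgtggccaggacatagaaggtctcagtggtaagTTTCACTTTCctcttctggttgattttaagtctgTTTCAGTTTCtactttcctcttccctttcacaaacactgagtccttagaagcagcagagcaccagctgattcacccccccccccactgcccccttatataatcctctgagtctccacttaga
Oas3: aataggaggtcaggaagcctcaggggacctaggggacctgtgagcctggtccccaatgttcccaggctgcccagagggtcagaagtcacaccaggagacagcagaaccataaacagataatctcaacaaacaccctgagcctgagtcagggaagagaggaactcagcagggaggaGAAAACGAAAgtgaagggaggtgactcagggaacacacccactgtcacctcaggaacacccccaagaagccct
Trim25: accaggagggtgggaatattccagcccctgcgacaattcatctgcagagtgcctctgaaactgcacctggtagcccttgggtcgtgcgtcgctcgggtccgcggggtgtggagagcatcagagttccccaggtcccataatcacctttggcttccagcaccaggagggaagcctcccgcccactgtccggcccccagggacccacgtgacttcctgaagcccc

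Of the 33 genes, 24 had a promoter in the RefSeq table. The response element core lay within the 250 bases before the start in 8 of these 24 (33.3%), namely Stat2, Oas1a, Oas3, Ifit1, Ifit3, Rsad2, Bst2 and Isg15, against 3.46% of the 27025 genes in the table. The core of the gamma-activated site, TTCNNNGAA, was found in 5 of 24 (20.8%), which are Irf1, Eif2ak2, Oas1a, Ifit2 and Bst2, against 8.13% of those genes. In Bst2 the last letters of the gamma-activated core are also the first of the response element. These matches are a description of the letters and were not tested for binding.

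The shallowest library, combination replicate 1, held 2719816 counts and the deepest, vehicle replicate 2, held 15224108. On the scale of CPM, counts scaled to a common library size, 1 count is worth 0.420 CPM in the first and 0.0573 CPM in the second. Genes annotated as ribosomal RNA or lying in its locus took 23.4% ± 1.38 (SD, n = 2) of counts in vehicle and 24.4% ± 0.506 (n = 2) with anti-PD-1. Their share was 32.1% ± 5.13 (n = 2) with JQ1 and 49.9% ± 4.67 (n = 2) with the combination. Counts of Xist and Y-linked genes were those of a female in 3 libraries (JQ1 replicate 1, combination replicate 1 and anti-PD-1 replicate 2) and of a male in the other 5. Alveolar type 2 markers, which fit the tissue label, summed to between 6278 and 11575 CPM. JQ1 replicate 1 and combination replicate 1 stood apart in airway markers, summing to 466 and 605 CPM against 14.2 to 289 CPM elsewhere, and in neutrophil markers, at 12.5 and 12.2 CPM against 2.13 to 4.78 CPM.

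Interferon-stimulated genes had few counts in every library. The RNA was captured with probes, so few counts need not mean little RNA. Between 323 counts in combination replicate 1 and 1874 in vehicle replicate 2 fell on all 33 members together. Of the 33, 23 had enough counts to test: 3 of 4 sensors, all 11 regulators and 9 of 18 effectors. The 10 left out are Zbp1, Oas1a, Oas2, Ifit1, Mx2, Rsad2, Cmpk2, Isg15, Rtp4 and Ifi44, with between 7 counts (Isg15) and 49 counts (Cmpk2) over the 8 libraries. Several of these, Isg15, Ifit1 and Rsad2 among them, are textbook members of the response, so the test does not reach the most familiar genes. A gene passes more easily where 1 group is high, so counts over the 23 are not counts over all members.

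Summed over all 33 genes, levels were 102 and 107 CPM in the vehicle libraries and 108 and 102 CPM with anti-PD-1. They were 152 and 124 CPM with JQ1 and 136 and 214 CPM with the combination. All 4 JQ1-treated libraries thus lay above the other 4, and combination replicate 2 was highest. The sum is led by the few members with the highest levels and does not show a rise of the set in each library. In JQ1 replicate 2, 8 of the 23 tested members were above both vehicle libraries and 7 were below both. Per kilobase of exon, vehicle means were highest for Irf1 (4.03 CPM per kb), Ifih1 (2.80), Ifi35 (2.34) and Trim25 (2.02), and lowest for Oas2 (0.0193). The plot of all members by library shows the counts behind each value.

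**Figure D1:**
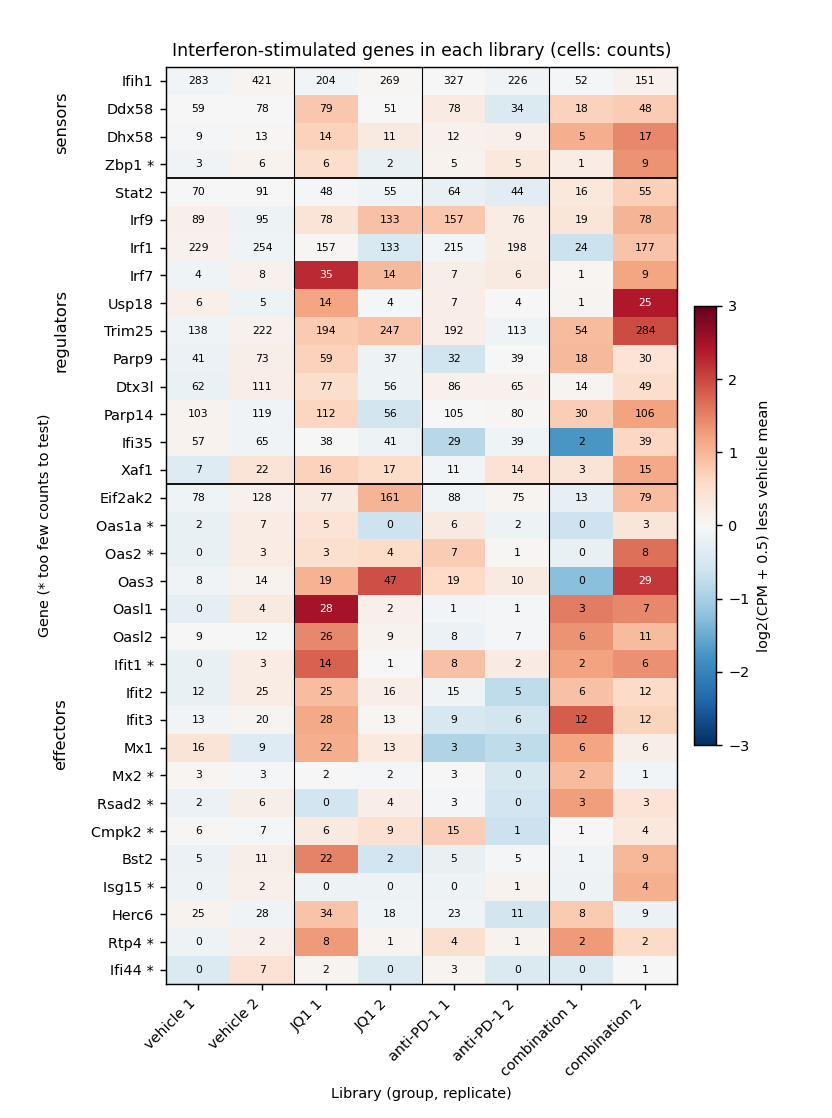
Each row is 1 of the 33 genes and each column 1 library; colour gives log2(CPM + 0.5) less the vehicle mean, and the number in a cell is the raw count. Of the 23 tested genes, 20 in JQ1 replicate 1 and 22 in combination replicate 2 were above the vehicle mean, the most of the 8 libraries. The 10 genes marked with an asterisk had between 7 and 49 counts in all.

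Among the sensors, Ifih1, which encodes MDA5, a sensor of long double-stranded RNA, had nearly the same level everywhere. It measured 21.6 and 24.1 CPM in vehicle, 21.4 and 23.4 with JQ1, 22.8 and 21.2 with anti-PD-1, and 21.8 and 24.8 with the combination. Libraries of all groups overlapped, and the difference between the combination and vehicle was 0.04 on the log2 scale (95% interval −0.59 to 0.66). Dhx58 encodes LGP2, a relative of MDA5 that modulates its signal. Its levels were 0.686 and 0.745 CPM in vehicle, 1.47 and 0.957 with JQ1, 0.837 and 0.844 with anti-PD-1, and 2.10 and 2.80 with the combination. Every JQ1-treated library was above the other 4, and both combination libraries were above both JQ1 ones, on 5 to 17 counts in each JQ1-treated library. Ddx58, which encodes RIG-I, the sensor of 5′-triphosphate RNA, had 4.50 and 4.47 CPM in vehicle, 8.27 and 4.44 with JQ1, 5.44 and 3.19 with anti-PD-1, and 7.56 and 7.90 with the combination. JQ1 replicate 2 stayed at the vehicle level, while the other JQ1-treated libraries were above all of the rest. Zbp1, a sensor of Z-form nucleic acid, had at most 9 counts in a library.

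Trim25, the ubiquitin ligase that modifies RIG-I, was the one regulator to pass the test. The gene lies on chromosome 11 from 88999376 to 89020293 (plus strand, GRCm38). It measured 10.5 and 12.7 CPM in vehicle, 13.4 and 10.6 with anti-PD-1, 20.3 and 21.5 with JQ1, and 22.7 and 46.7 with the combination. All 4 JQ1-treated libraries were above the other 4, and combination replicate 2 was more than 2-fold above any other library. Its counts ran from 54 to 284 a library, it shares 0.191% of its 50-base windows with other genes, and no other annotated gene overlaps its exons.

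The transcription factors of the response differed from one another. Irf7, which amplifies interferon production, had 0.305 and 0.458 CPM in vehicle, 3.66 and 1.22 with JQ1, 0.488 and 0.562 with anti-PD-1, and 0.420 and 1.48 with the combination. JQ1 replicate 1 was far above the rest with 35 counts, and combination replicate 1, with 1 count, was within the vehicle range. Stat2, a signalling member of the interferon-activated complex, had 5.34 and 5.21 CPM in vehicle, 5.03 and 4.78 with JQ1, 4.46 and 4.12 with anti-PD-1, and 6.72 and 9.05 with the combination. Only the combination libraries were above vehicle, and JQ1 and anti-PD-1 libraries were all below it. Irf9, the DNA-binding member of that complex, had 6.79 and 5.44 CPM in vehicle, 8.17 and 11.6 with JQ1, 10.9 and 7.12 with anti-PD-1, and 7.98 and 12.8 with the combination, so that every treated library exceeded both vehicle ones. Irf1, which also answers to interferon gamma, was between 10.1 and 29.1 CPM, with both extremes in the combination group.

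Usp18 removes ISG15 from proteins and dampens receptor signalling. It measured 0.457 and 0.286 CPM in vehicle, 1.47 and 0.348 with JQ1, 0.488 and 0.375 with anti-PD-1, and 0.420 and 4.11 with the combination. The combination mean rests on replicate 2 with its 25 counts, since replicate 1 had 1 count and lay within the vehicle range. Parp14, a mono-ADP-ribosyltransferase, had 7.85 and 6.82 CPM in vehicle, 11.7 and 4.87 with JQ1, 7.32 and 7.50 with anti-PD-1, and 12.6 and 17.4 with the combination. Both combination libraries were above all others, and the JQ1 pair lay on either side of vehicle. Of the remaining regulators, Parp9, its partner Dtx3l, Ifi35 and the apoptosis-linked Xaf1 ranged from 0.534 CPM (Xaf1) to 8.06 CPM (Dtx3l). Parp9 and Dtx3l share 458 exon bases on opposite strands, and no source used here says whether reads were counted by strand.

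The effectors were lower and more variable. Among the 2′-5′-oligoadenylate synthetases, which activate the RNA-degrading RNase L, Oas3 had 0.610 and 0.802 CPM in vehicle, 1.99 and 4.09 with JQ1, 1.33 and 0.937 with anti-PD-1, and 0 and 4.77 with the combination. The combination libraries were the lowest and the highest of the 8, with 0 and 29 counts; a count of 0 in replicate 1 allows up to 1.26 CPM (3 counts). Oasl1, a synthetase-like protein that restrains Irf7 translation, had 0 and 0.229 CPM in vehicle, 2.93 and 0.174 with JQ1, 0.0697 and 0.0937 with anti-PD-1, and 1.26 and 1.15 with the combination. JQ1 replicate 1 gave 28 of the 46 counts, JQ1 replicate 2 was within the vehicle range, and the combination libraries rest on 3 and 7 counts. Summed, the combination had 10 counts and anti-PD-1 had 2, a depth-scaled ratio of 14.8 (95% counting interval 3.15 to 139). Oasl2, its relative, had 0.686 and 0.687 CPM in vehicle, 2.72 and 0.783 with JQ1, 0.558 and 0.656 with anti-PD-1, and 2.52 and 1.81 with the combination, and here every JQ1-treated library was above the rest.

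Ifit3, one of the proteins that bind foreign RNA and the translation factor eIF3, had 0.991 and 1.15 CPM in vehicle, 2.93 and 1.13 with JQ1, 0.628 and 0.562 with anti-PD-1, and 5.04 and 1.97 with the combination. Combination replicate 1 was highest on 12 counts, and both anti-PD-1 libraries were below both vehicle ones. Its neighbour Ifit3b shares 51.2% of the 50-base windows of Ifit3, so reads could be split between them; Ifit3b itself had at most 7 counts in a library. Mx1, a GTPase that blocks influenza-like viruses, had 1.22 and 0.516 CPM in vehicle, 2.30 and 1.13 with JQ1, 0.209 and 0.281 with anti-PD-1, and 2.52 and 0.987 with the combination. The 2 anti-PD-1 libraries were the lowest of all, with 3 counts each. Bst2, which encodes tetherin, the protein that holds budding virus at the cell surface, had 0.381 and 0.630 CPM in vehicle, 2.30 and 0.174 with JQ1, 0.349 and 0.469 with anti-PD-1, and 0.420 and 1.48 with the combination. As with Usp18, 1 library of each JQ1-treated pair was above vehicle and the other was not.

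Eif2ak2 encodes PKR, the kinase that stops translation on double-stranded RNA. It was highest in JQ1 replicate 2 (14.0 CPM) and combination replicate 2 (13.0 CPM), against 5.46 to 8.06 CPM in the other 6 libraries. Ifit2 ranged from 0.469 to 2.62 CPM and Herc6, the mouse ligase that attaches ISG15, from 1.03 to 3.56 CPM, both lowest in anti-PD-1 replicate 2 and highest in JQ1 replicate 1. Among the genes too low to test, Ifit1 had 0 and 3 counts in vehicle, 14 and 1 with JQ1, 8 and 2 with anti-PD-1 and 2 and 6 with the combination. Summed, JQ1 exceeded vehicle in Ifit1 by a ratio of 7.26 (95% counting interval 2.05 to 39.1), nearly all of it from JQ1 replicate 1. Isg15, the ubiquitin-like modifier, had 4 of its 7 counts in combination replicate 2.

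**Figure D2:**
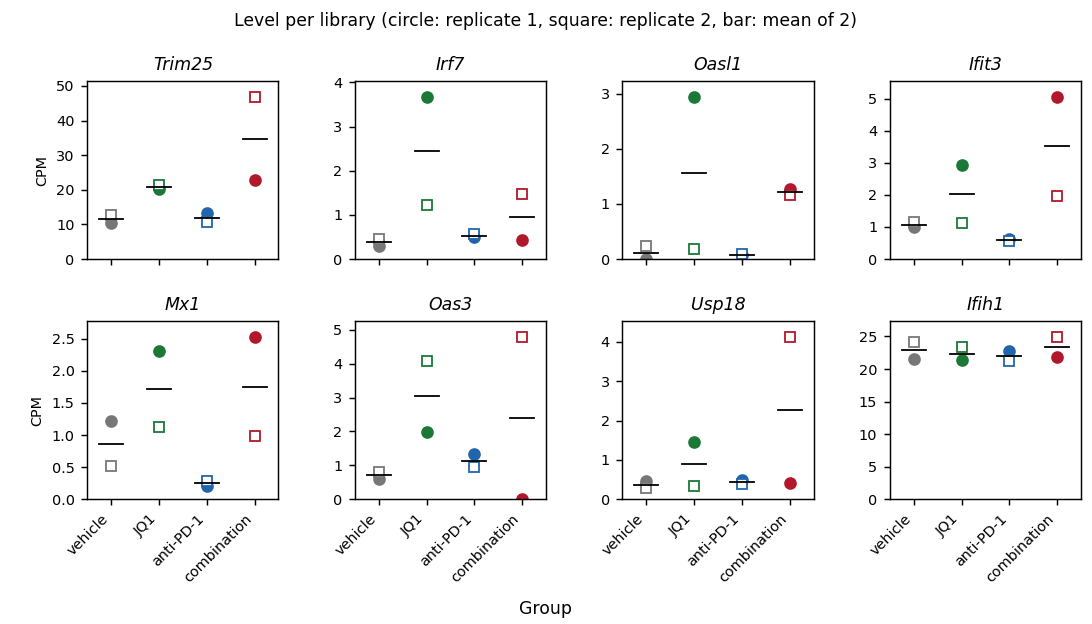
Level in CPM of 8 genes in the 4 groups, with circles for replicate 1, squares for replicate 2 and a bar for the mean of 2; every axis starts at 0 and has its own scale. Trim25 was above 20 CPM in all JQ1-treated libraries and below 14 CPM in the other 4, Irf7 and Oasl1 with JQ1 and Usp18 with the combination owe their group mean largely to 1 library, and Ifih1 stayed between 21.2 and 24.8 CPM.

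JQ1 alone gave no member past the test against vehicle. With edgeR's quasi-likelihood F test, 0 of 23 members passed a Benjamini-Hochberg adjusted p of 0.05, and 0% of all genes tested did. At an unadjusted p below 0.05 there were 3 members, all higher, beside 10.1% of all genes in either direction, and DESeq2 and limma voom called 0 members as well. In order of p, the first members were Irf7 (log2 2.62, SE 0.83, adjusted p = 0.443) and Oasl1 (3.49, SE 1.36, adjusted p = 0.452), followed by Trim25 (0.85, SE 0.37, adjusted p = 0.479) and Oas3 (2.09, SE 0.94, adjusted p = 0.493). Of the 23, 19 had a positive difference, with a median of 0.74 against 0.06 over all genes. Both JQ1 libraries were above both vehicle ones in 8 members (26.3% of all genes) and below in 1, Stat2 (23%). Without JQ1 replicate 1 the median was 0.08, so the group value rests on that library.

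Anti-PD-1 alone gave values near vehicle. No member passed edgeR's test (0 of 23, with 0% of all genes), none reached an unadjusted p below 0.05 (1.98% of all genes), and DESeq2 and limma voom called none. The median was −0.05, with 10 of 23 positive. The smallest p belonged to Mx1 (log2 −1.77, SE 0.90) and Irf9 (0.57, SE 0.40), each with an adjusted p of 1 in edgeR. Both antibody libraries were above both vehicle ones in 4 members (14.4% of all genes) and below in 5 (16%). Effectors had a median of −0.40 with 1 of 9 positive, and regulators 0.07 with 8 of 11 positive. No test compared these roles.

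In the combination Trim25 rose against vehicle by 1.59 on the log2 scale (SE 0.38, 95% interval 0.76 to 2.43, adjusted p = 0.0419 in edgeR), about 3-fold. It was the 1 of 23 members to pass, beside 4.8% of all genes tested, which is near the members' own share. The next were Dhx58 (1.79, SE 0.67, adjusted p = 0.125), Usp18 (2.74, SE 1.04, adjusted p = 0.130) and Parp14 (1.05, SE 0.44, adjusted p = 0.161), none past the threshold. At an unadjusted p below 0.05 there were 5 members, all higher, beside 27.3% of all genes in either direction. All 23 differences were positive, with a median of 0.91 against 0.07 over all genes. Positive differences numbered 22 with RLE factors, DESeq2 or limma voom, 17 without combination replicate 2, and 7 in a model that held the ribosomal RNA share. Both combination libraries were above both vehicle ones in 12 members, beside 29.5% of all genes, and below in none, beside 29.1%. Without combination replicate 2 the median was 0.48 and Trim25 stood at 0.98 without a call.

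Adding JQ1 to the antibody gave a like list of values. This comparison shares the combination libraries with the one before, so they are not independent. Trim25 rose by 1.55 (SE 0.38, adjusted p = 0.0485 in edgeR), the 1 call among 23, beside 4.23% of all genes. Ifit3 (2.45, SE 0.76, adjusted p = 0.0827), Mx1 (2.68, SE 0.96, adjusted p = 0.115) and Usp18 (2.50, SE 1.04, adjusted p = 0.157) did not pass. In all, 8 members had an unadjusted p below 0.05, each of them higher, beside 27% of all genes in either direction. All 23 were positive (14 without combination replicate 2, and 9 with the ribosomal RNA share in the model), with a median of 1.03 against 0.05 over all genes, and effectors had a median of 1.5. Of the 23 members, 11 had both combination libraries above both antibody ones, beside 27.9% of all genes. Without combination replicate 2, Usp18 stood at −0.04 and the median at 0.65.

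Adding the antibody to JQ1 moved no member past the test (0 of 23 in edgeR, beside 0.0213% of all genes), with 0 members at an unadjusted p below 0.05 (14.1% of all genes) and 0 calls in DESeq2 and limma voom. Trim25 differed by 0.75 (adjusted p = 0.389) and Parp14 by 0.88 (adjusted p = 0.405). In 4 members, Dhx58, Stat2, Trim25 and Parp14, both combination libraries were above both JQ1 ones, beside 19.7% of all genes. The median was 0.14, and it was 0.71 without JQ1 replicate 1. The interaction, which asks whether JQ1 acted differently with the antibody than without, gave 0 calls of 23 (0% of all genes), none at an unadjusted p below 0.05 (6.25% of all genes) and none in DESeq2 or limma voom. Its smallest adjusted p were 0.795 for Stat2 (1.0 on the log2 scale) and 0.838 for Ifit3 (1.54). With 2 libraries a group this does not show that the JQ1 effect is the same in both settings.

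Averaged over both settings, which uses all 8 libraries, JQ1 gave Trim25 a rise of 1.20 (SE 0.26, 95% interval 0.62 to 1.78, adjusted p = 0.0304 in edgeR), again 1 of 23 beside 8.27% of all genes. Oasl1 (3.60, SE 1.05, adjusted p = 0.0584), Ifit3 (1.68, SE 0.51, adjusted p = 0.0652) and Mx1 (1.83, SE 0.62, adjusted p = 0.0812) came next without passing. At an unadjusted p below 0.05 there were 10 members, all higher, 6 of them among the 9 effectors, beside 31.6% of all genes in either direction. Effectors had a median of 1.55 and regulators 0.60, and all 23 members were positive. That count was 21 with RLE factors or DESeq2, 19 without combination replicate 2, and 11 in a model with the ribosomal RNA share. In 3 members, Dhx58, Trim25 and Oasl2, all 4 JQ1-treated libraries lay above the other 4, beside 10.2% of all genes.

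**Figure D3:**
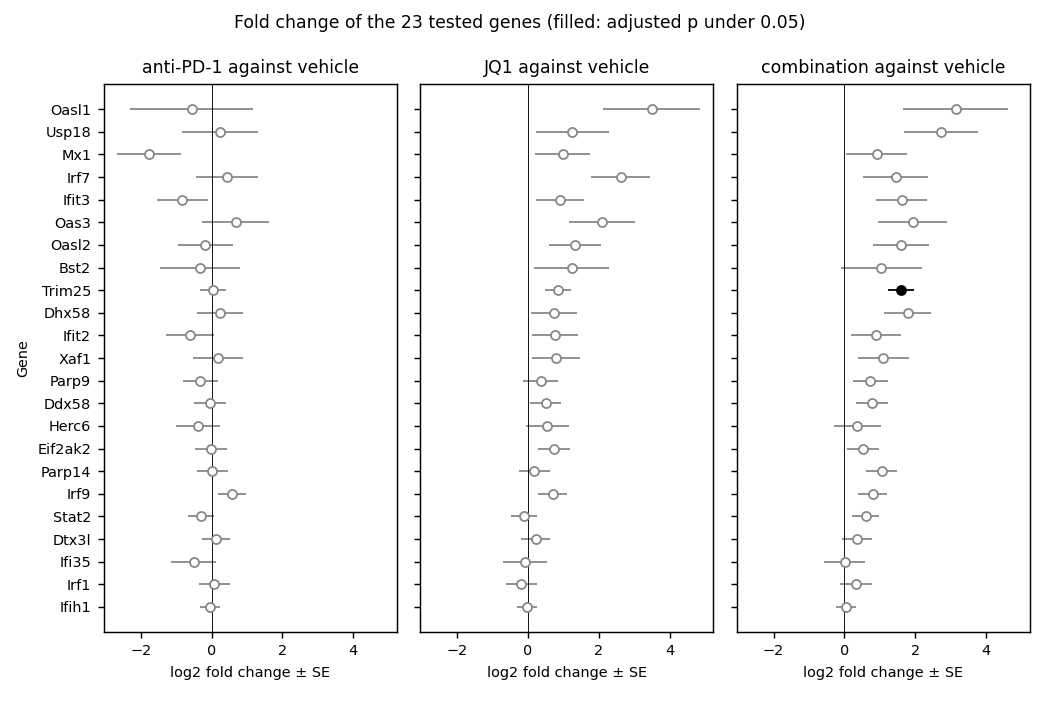
Log2 fold change with its standard error for the 23 tested genes, in anti-PD-1, JQ1 and the combination against vehicle, ordered by the average JQ1 difference; filled points have an adjusted p below 0.05. The filled point is Trim25 in the combination at 1.59, and the open points of the effectors with few counts, such as Oasl1, have the widest bars.

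The Trim25 call depended on single libraries and on the ribosomal RNA share. Against vehicle the combination call was kept in 11 of 18 alternative analyses and in 3 of 8 that left out 1 library. It was lost without either vehicle library, either anti-PD-1 library or combination replicate 2, with differences of 0.98 to 2.01 over the 8. Against anti-PD-1, and for JQ1 over both settings, it was kept in 1 of 8, without combination replicate 1 (1.96 and 1.40). In a model that also held the ribosomal RNA share, the Trim25 difference was 0.17 (adjusted p = 0.985), and for JQ1 over both settings 0.29 (adjusted p = 0.940). The loss was not particular to Trim25: over all genes that model called 2 and 4 genes, against 676 and 1165 without the term. Calls over all genes also fell sharply when either vehicle library was left out. The ribosomal RNA share was 49.9% in the combination and 23.4% in vehicle, so it moves with the groups and its part in the result cannot be told apart from treatment. Leaving the ribosomal RNA genes out of the table kept the difference at 1.58 (adjusted p = 0.0420).

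The 4 JQ1-treated libraries did not show the same response. Medians over the 23 tested members of log2(CPM + 0.5), less the vehicle mean, were 0.79 and 0.06 in JQ1 replicates 1 and 2 and 0.38 and 0.93 in combination replicates 1 and 2. Those of anti-PD-1 were −0.09 and −0.02, and over all genes no library was more than 0.05 from 0. JQ1 replicate 1 and combination replicate 2 were thus high, combination replicate 1 intermediate, and the median of JQ1 replicate 2 near vehicle, with 8 members above and 7 below both vehicle libraries. Members above both vehicle libraries numbered 19, 8, 14 and 21 of 23 in the same order, beside 42.1%, 41.5%, 42.5% and 44.1% of all genes, and 7 and 6 in the anti-PD-1 libraries, beside 35.4% and 33.3%.

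**Figure D4:**
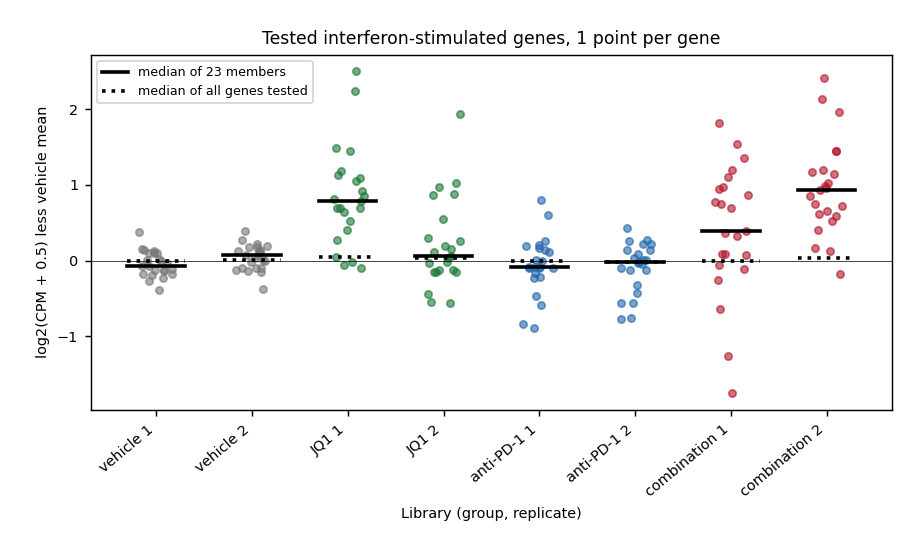
Each point is 1 of the 23 tested genes in 1 library, as log2(CPM + 0.5) less the vehicle mean; solid bars are medians over these genes and dotted bars medians over all genes tested. The solid bar is at 0.79 in JQ1 replicate 1 and 0.93 in combination replicate 2, and near 0 in JQ1 replicate 2 and both anti-PD-1 libraries.

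Which genes were high also differed between these libraries. In 11 members JQ1 replicate 1 exceeded JQ1 replicate 2 while combination replicate 2 exceeded combination replicate 1: Ddx58, Dhx58, Stat2, Irf1, Irf7, Usp18, Dtx3l, Parp14, Ifi35, Xaf1 and Bst2, of which 8 are regulators. In 7 members, Parp9, Oasl1, Oasl2, Ifit2, Ifit3, Mx1 and Herc6, replicate 1 was the higher of both pairs. In 5 members, Ifih1, Irf9, Trim25, Eif2ak2 and Oas3, replicate 2 was. No member had JQ1 replicate 2 and combination replicate 1 as the higher ones. Over all genes these 4 patterns took 26.9%, 23.5%, 25.1% and 23.9%. Replicate numbers here only name libraries.

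The 7 genes higher in replicate 1 of both pairs were picked by that pattern, which 23.5% of all genes had. Those 2 libraries, both female, had the most airway and neutrophil marker RNA. Of 8 neutrophil markers, 5 could be tested, with medians of 1.83 in JQ1 replicate 1 and 1.56 in combination replicate 1 and between −0.13 and 0.46 in the other 6 libraries, and the defining marker Ly6g had 1 count in all. Airway markers had medians of 2.36 and 2.64 in the same libraries. Anti-PD-1 replicate 2, also female, had a median of −0.02 over all 23 tested members, a wider set than these 7. Combination replicate 2, with the highest median over the 23, had a neutrophil marker median of −0.01. Endothelial markers had medians over 7 genes of 0.89 and 0.43 with JQ1 and 1.12 and 0.98 with the combination, against 0.44 and 0.42 with anti-PD-1 and −0.33 and 0.33 in vehicle. In edgeR 2 of the 7 passed in the combination against vehicle, beside 4.8% of all genes. Their median was 0.90, against 0.07 over all genes. For JQ1 over both settings 3 of 7 passed, beside 8.27% of all genes. With the ribosomal RNA share in the model, 2 of all genes passed in the first of these comparisons and 4 in the second. The part of neutrophil, airway and endothelial RNA in the member values was not tested. With a sex term in the model Trim25 kept its calls in the combination against vehicle (1.77, adjusted p = 0.0439) and for JQ1 over both settings (1.29, adjusted p = 0.0310), while the call against anti-PD-1 was lost.

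Interferon genes themselves were almost without counts. Of 15 listed, 13 had no count in any library, Ifnb1 and Ifng among them, and the other two, Ifne and Ifnab, had 3 counts and 1 count. The plasmacytoid dendritic cell marker Siglech, of the cell type known for interferon production, had 7 counts in all, in JQ1 replicate 1 and anti-PD-1 replicate 1. The 10 T and NK cell markers summed to between 0.229 and 2.09 CPM a library. With so few counts no difference in these genes was detectable.

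Receptor and signalling genes were better covered. Of the 27 genes for interferons, receptors and signalling, 11 were tested and 1 rose in the combination against vehicle (4.8% of all genes passed), Ifngr1, a chain of the interferon gamma receptor. It measured 7.55 and 5.38 CPM in vehicle, 17.0 and 9.92 with JQ1, 10.2 and 10.3 with anti-PD-1, and 19.7 and 75.4 with the combination. Its rise was 2.90 (SE 0.58, adjusted p = 0.0328 in edgeR) in the combination against vehicle and 1.65 (adjusted p = 0.0388) for JQ1 over both settings, although JQ1 replicate 2 lay below both antibody libraries. The combination mean rests largely on replicate 2, at 75.4 CPM. With the ribosomal RNA share in the model, 2 of all genes tested passed in the first of these comparisons and 4 in the second. That limit also holds for the calls in the lists below. The type I receptor chain Ifnar1 had 8.92 and 9.45 CPM in vehicle and 9.83 and 7.87 with anti-PD-1. In the JQ1 libraries it had 14.1 and 14.6 CPM, and in the combination 16.4 and 12.8 CPM. All 4 JQ1-treated libraries were above the rest, but Ifnar1 passed no test.

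Of 21 genes of nucleic acid sensing, 18 were tested. None passed in JQ1, anti-PD-1 or the combination against vehicle, and Aim2, a sensor of cytosolic DNA, rose for JQ1 over both settings by 2.77 (SE 0.52, adjusted p = 0.0217 in edgeR), 1 of 18 beside 8.27% of all genes. Its levels were 1.22 and 0.573 CPM in vehicle, 2.51 and 9.74 with JQ1, 0.697 and 0.562 with anti-PD-1, and 5.46 and 3.46 with the combination. All JQ1-treated libraries were above the rest, and the highest was JQ1 replicate 2, whose member median was 0.06.

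Of 43 other interferon-stimulated genes, 34 were tested and 1 rose, Apobec3, a cytidine deaminase that restricts retroviruses, while 4.8% of all genes passed with the combination and 8.27% for JQ1 averaged. It had 3.96 and 3.89 CPM in vehicle, 8.69 and 7.39 with JQ1, 5.37 and 5.91 with anti-PD-1, and 8.82 and 14.5 with the combination, and rose by 1.59 (SE 0.39, adjusted p = 0.0467 in edgeR) in the combination against vehicle and 1.05 (adjusted p = 0.0432) for JQ1 over both settings. Their median was 0.70 in the combination and 0.55 with JQ1, against 0.91 and 0.74 for the 23 members. Of 14 genes led by interferon gamma, which include chemokines, immunoproteasome subunits and antigen transporters, 9 were tested. In edgeR 0 of these 9 passed in any comparison, beside 0% to 8.27% of all genes. At an unadjusted p below 0.05, 1 was higher and 1 lower in the combination against vehicle, beside 27.3% of all genes in either direction. In JQ1 replicates 1 and 2 the medians of these 9 were 0.34 and −0.44, and in the combination 0.51 and 0.53.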

How the data were processed

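RNA of frozen tumour nodules was captured with probes for coding regions (TruSeq RNA Access), per the labels' protocols. The authors deposited whole-number read counts per gene symbol, which were used as they stand. The submitters' processing notes name STAR, featureCounts, bcl2fastq and DESeq2, and mm10 and GRCm38 as builds, with no version, annotation or strand setting. Probe capture and the RNA input limit how levels compare between genes. The deposited normalized table was not used.

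Counts of 14085 of 52459 genes kept by filterByExpr (minimum count 10) were fitted with edgeR 4.0.16 in R 4.3.3 (robust quasi-likelihood F test, TMM factors, 1 mean per group, all 8 libraries, 4 residual degrees of freedom, prior count 0.125). P-values were adjusted by Benjamini-Hochberg over all genes tested, in each of 7 contrasts, and called at 0.05. CPM use TMM-scaled totals. Single libraries are shown as log2(CPM + 0.5). Counting intervals are exact at 95% and, like the 3-count floor, cover counting error only. Total counts ranged from 2719816 to 15224108, which limits genes with few counts. Positions and lengths are from GENCODE vM21 on GRCm38, and promoters from RefSeq on GRCm38.p6. The method was tested on simulated data.

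Groups come from the treatment labels, and replicates are numbered in accession order. Whether a group's libraries stem from separate animals is not stated. By counts of Xist and Y-linked genes, JQ1, anti-PD-1 and the combination each had a female and a male library. The libraries of each of these pairs thus came from different animals. Both vehicle libraries were male, so sex does not tell whether they share an animal. P-values reflect only how these samples vary, which in vehicle may be technical. No library was a duplicate (lowest chi-square per degree of freedom 19.4 within groups). The 33 members, their roles and the pathway and marker lists were chosen with earlier results of these data known. Members called, and otherwise those with the smallest p (up to 4 in the contrasts that add JQ1, up to 2 in the others), are given with full statistics; genes of other lists are named where called or where they define the list, and Ifnar1 and Ifit3b were named after their values were seen. Alternatives were upper-quartile and RLE factors, DESeq2 1.42.0, voom in limma 3.58.1, no filter, a minimum mean count of 50, only the groups compared, a sex term, a ribosomal RNA share term, removal of ribosomal RNA genes, a pseudocount of 2 CPM, the whole 300-base promoter window, and each library left out.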

Additional observations from a re-analysis of the deposited data

How the results depend on the processing

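When the model held the ribosomal RNA share, member medians were 0.18 for JQ1 against vehicle, −0.24 for the combination against vehicle, −0.27 against anti-PD-1, −0.74 against JQ1, −0.0774 for JQ1 over both settings and −0.67 for the interaction. With that term 0 members were called in the combination against vehicle, against anti-PD-1 and for JQ1 over both settings, and named members changed sign: against vehicle Dhx58 (−0.11), Usp18 (−7.07) and Parp14 (−2.38), against anti-PD-1 Usp18 (−7.00), against JQ1 Trim25 (−0.23) and Parp14 (−1.33), and over both settings Oasl1 (−1.54). The share moves with the groups, and the cause was not tested. Against vehicle 0 members were called when only the groups compared were fitted, a fit of fewer libraries; against anti-PD-1 0 were called in that fit, with limma voom and with the sex term. For JQ1 over both settings 4 were called without a filter (Ifit3, Oas3, Oasl1 and Trim25) and 2 with DESeq2 (Ifit3 and Trim25). A mean count of at least 50, which left 9 members, gave medians of 0.32 for JQ1 against vehicle and 0.68 for the combination against anti-PD-1.

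Leaving out 1 library at a time leaves 1 group with a single library. Calls over all genes changed widely between these fits, so calls of single members in them say little about the members. Without combination replicate 1, the shallowest library, Oas3 stood at 2.73 in the combination against vehicle. Without JQ1 replicate 2, Oasl1 stood at 4.07 for JQ1 over both settings. Medians ran from 0.0786 to 0.88 for JQ1 against vehicle, 0.48 to 0.97 for the combination against vehicle, 0.65 to 1.25 against anti-PD-1, −0.0322 to 0.713 against JQ1 and 0.0677 to 0.915 for the interaction. Usp18 in the combination against anti-PD-1 ran from −0.0439, without combination replicate 2, to 3.21, without combination replicate 1. Over all alternatives 95 of 124 counts of members called and 110 of 124 medians stayed close to the value reported. Of 377 values of named members, 339 kept their direction and side of the threshold, but most of these had no call to lose. The Trim25 call was kept in 11 of 18 alternatives for the combination against vehicle. It was kept in 7 of 18 against anti-PD-1 and in 9 of 17 for JQ1 over both settings. Over all genes the combination against vehicle called 676 genes, 1652 with DESeq2 and 1992 without a filter, and JQ1 over both settings 1165, 2128 and 2527. Other alternatives lowered these numbers, to 339 and 878 with a sex term and to 2 and 4 with the ribosomal RNA share in the model. With JQ1 against vehicle 0 genes were called, 80 with DESeq2 and 250 without a filter. Upper-quartile factors put the median of all genes at 0.16 for JQ1 against vehicle, against 0.06. The response element core was found in 11 members and the gamma-activated core in 6 in the whole promoter window. No paired analysis was possible because the labels carry no replicate numbers. Depth limits the 10 untested members most: 1 count is 0.420 CPM in combination replicate 1.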
